A study of Arabidopsis thaliana with 72 samples.

Results

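The 100 genes described here are those whose leaf transcripts were lowest after 48 h of bicarbonate relative to pH 5.9 in both of 2 *Arabidopsis thaliana* demes, out of 18603 genes measured. They were chosen from values on the log2 scale of read counts scaled to the library total (CPM). A gene had to average at least 1 CPM in the pH 5.9 libraries of both demes after 48 h, which 16473 genes did. In each deme a score was taken as the lowest pH 5.9 library minus the highest bicarbonate library, and genes were ranked by the lower of their 2 scores. Both scores were above 0 for 1564 genes and above 1 for 45. The lower score ran from 3.55 for NEET, ranked first, to 0.70 for AT5G59970, ranked last, which is a gap of 1.63-fold between the nearest libraries. Just inside the limit were AT4G16980 and OEP6 (both 0.71), AT1G26790 and AT1G52770 (both 0.71) and AT5G59970 (0.70), and just outside were RBP47A (0.70), AT1G49010 and AT3G16350 (both 0.69), and OVA4 and AT3G14200 (both 0.68). In 86 of the 100 members the A1(c+) score was the lower one, so that deme set the rank. Because the rule used the 48 h libraries at pH 5.9 and with bicarbonate, values in them are given as a description with no test. Membership rested on single libraries of A1(c+): 53 of the 100 genes stayed among the first 100 without bic replicate 1 of that deme and 55 without bic replicate 2. Of the 100, 66 stayed when the floor was raised to 10 CPM.

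Leaves came from hydroponic plants treated at an age of 15 days, with 12 groups made of 2 demes, 2 times (3 h and 48 h) and 3 solutions. A1(c+) grows near calcareous soils and is the tolerant deme, and T6(c−) comes from siliceous soil and is the sensitive one; demes are small local populations and the plants carry no transgene. The solutions were pH 5.9 (control), pH 8.3, and bic (10 mM NaHCO3 at pH 8.3), all with the organic buffers MES and BTP, so the bic groups share their pH with the pH 8.3 groups. Each group has 2 biological replicates, each of 3 technical libraries that appear as 1 column (called a library below), and pools of plants were harvested. The sources give both 2 and 3 biological replicates, and p-values below measure only the spread between these columns. Values are given for replicate 1 first and replicate 2 second.

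When leaves run short of usable iron, as happens at high pH and with bicarbonate, plants lower transcripts for iron storage and for several chloroplast iron proteins and raise those of iron uptake and signalling. Ferritins store iron in plastids, vacuolar iron transporters move it into the vacuole, and 2Fe-2S and haem proteins carry electrons in the photosynthetic chain. Cell wall enzymes such as expansins and xyloglucan endotransglucosylases (XTHs) loosen the wall in growing leaves.

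Library totals ran from 63.5 to 120.6 M reads. The mesophyll markers RBCS1A, RBCS3B, RCA and CA1 were present in all 24 libraries, with a summed level of 13165 to 46616 CPM. Their sum was 13165 to 18147 CPM in T6(c−) bic at 48 h against 44187 to 44608 CPM at pH 5.9, and 27316 to 33729 CPM in A1(c+) bic against 33908 to 43546 CPM. Sums of other leaf cell markers also moved in T6(c−) bic at 48 h: 3 epidermis markers had 976 to 987 CPM against 314 to 315 CPM at pH 5.9, 2 phloem markers 145 to 190 against 86.0 to 88.5 CPM, and 3 guard cell markers 43.6 to 50.3 against 31.2 to 32.9 CPM. At 3 h the epidermis sum in T6(c−) was 526 to 536 CPM with bic and 514 to 520 CPM at pH 8.3 against 263 to 264 CPM. Their part in the members' values was not tested. The 2 shoot meristem markers, STM and KNAT1, ranged from 0.00967 to 37.2 CPM in sum, and 1 of the 6 root markers (PYK10) was in the table, at 3.22 to 507 CPM. In whole leaves, fewer cells of a type and less RNA per cell cannot be told apart. Both pH 5.9 pairs of T6(c−) were closer than any other: per degree of freedom, the chi-square of their reads was 2.42 (3 h) and 3.45 (48 h), and the other 10 groups had 46.0 to 508. These values are above what counting noise gives, and each pair was kept as 2 columns as labelled; that they are separate biological replicates is not shown, and if they are not, the spread used in the tests is too small.

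Several libraries departed from the deme they are labelled with. At pH 5.9, 117 genes separated the demes by at least 5 on the log2 scale across all pH 5.9 libraries, 57 of them high in A1(c+) and 60 high in T6(c−), and none of these was a member. In replicate 2 of A1(c+) bic at 3 h, as labelled, 33 of the 57 genes were high and 31 of the 60 T6(c−) genes were high too. In replicate 1 of T6(c−) pH 8.3 at 48 h, as labelled, 32 of the 57 A1(c+) genes were high and 33 of the 60 were high. Of the 57 A1(c+) genes, 45 and 27 were high in the libraries labelled T6(c−) bic 48 h, 31 in T6(c−) bic 3 h replicate 2 and 25 in T6(c−) pH 8.3 3 h replicate 2, while at least 58 of the 60 T6(c−) genes stayed high there. The part of this in the results was not tested, and the counts of members called below are also given without the 4 such replicates in the tests, an alternative chosen after the data were seen. Tests of a difference between the demes in response and counts over gene lists were not repeated without them. The T6(c−) bic libraries of 48 h are both among those that depart, so the T6(c−) scores could not be taken without them; leaving out 1 of them kept 86 or 84 of the 100 members.

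Across the members, the mean level with bic at 48 h differed from pH 5.9 by a median of -1.47 on the log2 scale in A1(c+) and -2.06 in T6(c−), where the median over all genes was 0.18 and 0.30; this is the pattern the rule selected. Single members lay between -5.51 and -0.75 in A1(c+), and the range in T6(c−) was -8.01 to -0.85. At pH 8.3 without bicarbonate the same genes lay nearer to their pH 5.9 levels at 48 h. Their median difference from pH 5.9 was -0.19 in A1(c+), with 63 members below 0, and -0.06 in T6(c−), with 54 below 0. By library the median was -0.50 and 0.12 in A1(c+) and 0.27 and -0.28 in T6(c−), where replicate 1 departs from its deme. At 3 h, with libraries the rule did not use, the median came to -0.42 with bic and -0.41 at pH 8.3 in A1(c+), and -0.37 and -0.45 in T6(c−). The A1(c+) bic libraries had medians of -0.62 and -0.16, the latter in the replicate that departs from its deme. The median over all genes was -0.19 and -0.27 in A1(c+) and -0.07 and -0.01 in T6(c−), so part of the A1(c+) value at 3 h was a shift of the whole table. With TMM factors that shift was 0.01 and 0.00, and the A1(c+) medians of the members became -0.22 with bic and -0.14 at pH 8.3.

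**Figure D1:**
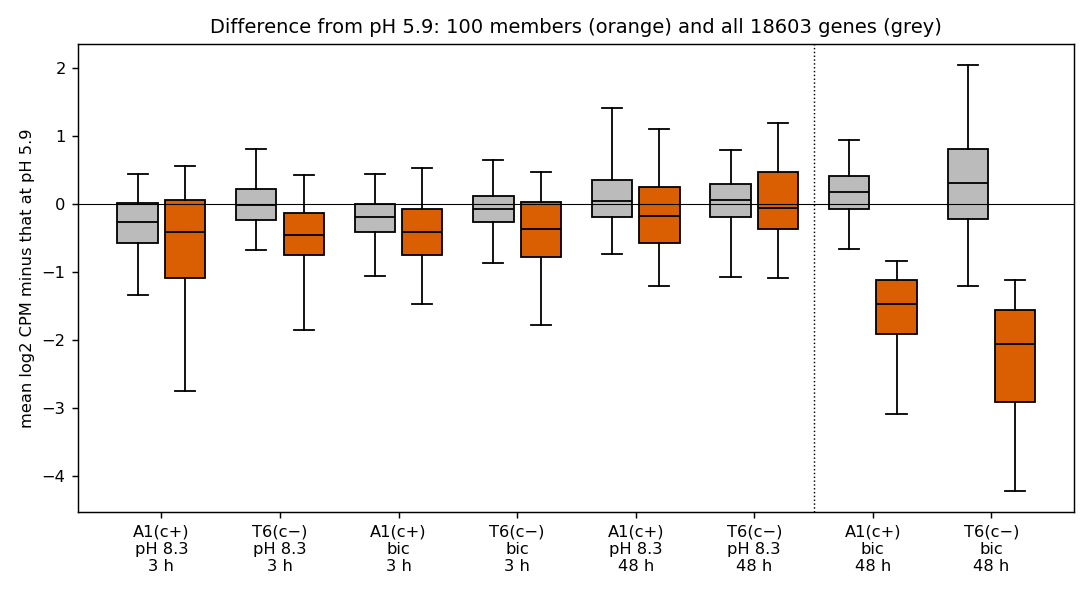
Difference of the group mean from pH 5.9 (log2 CPM) in each deme, treatment and time, for the 100 members (orange) and all 18603 genes (grey). Boxes hold the middle of the genes with the median as a line, whiskers run from the 5th to the 95th percentile, and the members' medians lie at -1.47 and -2.06 right of the dotted line, where the libraries chose the members, and between -0.06 and -0.45 left of it.

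The plot of all members by library shows that the 100 genes did not behave as 1 unit before 48 h. At 3 h single members ranged from -3.19 to 1.28 with bic and from -4.48 to 1.20 at pH 8.3 in A1(c+). At pH 8.3 and 48 h the 2 replicates of a group often differed: in 47 members the A1(c+) replicates, and in 41 the T6(c−) replicates, lay on opposite sides of the pH 5.9 mean.

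**Figure D2:**
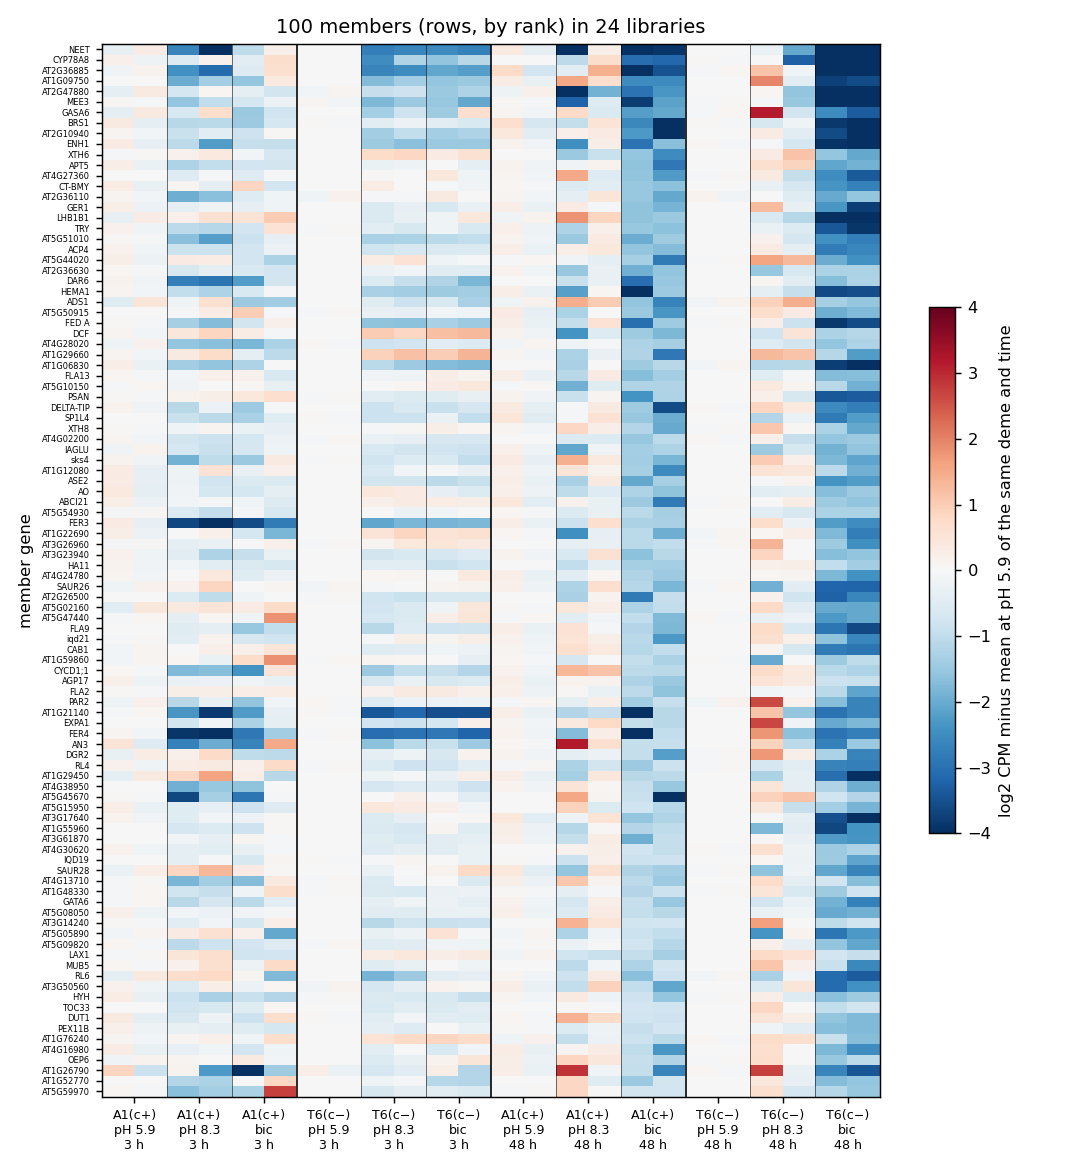
Log2 CPM of the 100 members (rows, in rank order) in the 24 libraries (columns, replicate 1 then 2 within each group), minus the mean of the 2 pH 5.9 libraries of the same deme and time. Blue is lower and red higher, with colours capped at 4; the bic columns at 48 h are blue in all rows by the rule, and the NEET, FER3, FER4 and AT1G21140 rows are also blue in the T6(c−) columns at 3 h.

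FER4, AT1G21140 and NEET, which store or buffer iron, had the 3 lowest differences of all members in T6(c−) after 3 h under both treatments, and FER3 had the lowest in A1(c+) with bic. Of 10 iron storage genes listed, 8 were in the table and 4 were members: NEET, FER3, FER4 and AT1G21140, the vacuolar iron transporter-like gene VTL1. NEET (chr5:21009347-21010345) encodes a 2Fe-2S protein of chloroplasts and mitochondria. Its level at 48 h was 150.2 and 92.4 CPM at pH 5.9, 3.72 and 137 at pH 8.3 and 0.844 and 7.899 with bic in A1(c+). In T6(c−) it was 206 and 209.6 CPM at pH 5.9, 173 and 50.003 at pH 8.3 and 1.30 and 0.499 with bic, so in T6(c−) both bic libraries were far below all others. In A1(c+) the pH 8.3 libraries were split, and bic replicate 2 lay above pH 8.3 replicate 1. At 3 h the T6(c−) libraries had 58.8 and 61.2 CPM at pH 5.9, 8.96 and 9.898 at pH 8.3 and 10.4 and 9.23 with bic, so the treated and control groups did not overlap. In A1(c+) they had 139 and 206 CPM, 26.9 and 7.68 at pH 8.3 and 83.6 and 194 with bic, and the bic group overlapped the control through replicate 2, the library that departs from its deme, while replicate 1 lay below both controls. None of these differences of NEET was a DEG (a gene whose log2 fold change exceeds 1 in size at an adjusted p below 0.05): at pH 8.3 in A1(c+) it was -3.56 on the log2 scale, SE 1.30, adjusted p = 0.141.

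FER3 (chr3:20813904-20816035) and FER4 (chr2:16831109-16833294) encode ferritins, the iron-storing protein shells of plastids. FER3 had 269 and 171 CPM in A1(c+) at pH 5.9 after 3 h, 17.3 and 12.5 at pH 8.3 and 17.9 and 30.6 with bic. It had 90.98 and 89.9 CPM at pH 5.9, 21.6 and 25.3 at pH 8.3 and 24.7 and 26.1 with bic in T6(c−). All treated libraries thus lay below all pH 5.9 libraries of 3 h. The difference at pH 8.3 in A1(c+) was -3.87 on the log2 scale, SE 0.48, adjusted p = 0.0212 and passed the test; that with bic was -3.19 on the log2 scale, SE 0.48, adjusted p = 0.0801 and did not. FER4 had 82.6 and 70.4 CPM at pH 5.9, 5.14 and 2.28 at pH 8.3 and 10.6 and 29.4 with bic in A1(c+) after 3 h. In T6(c−) it had 25.7 and 27.3 CPM at pH 5.9, 3.18 and 3.46 at pH 8.3 and 3.65 and 2.89 with bic. It fell in A1(c+) at pH 8.3, where the difference was -4.48 on the log2 scale, SE 0.97, adjusted p = 0.0431. At 48 h the pH 8.3 libraries of FER4 were split, at 5.26 and 21.02 CPM in A1(c+), where pH 5.9 had 19.6 and 15.8, and at 36.5 and 3.47 in T6(c−), where it had 10.6 and 11.03. The bic libraries had 0.947 and 8.91 CPM in A1(c+) and 1.396 and 1.64 in T6(c−). FER3 went from 32.9 and 22.4 CPM at pH 5.9 to 11.3 and 11.04 with bic in A1(c+) and from 37.8 and 38.03 to 8.14 and 6.84 in T6(c−) at 48 h.

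AT1G21140 was a gene of low level, at 0.277 and 0.278 CPM with bic against 3.23 and 3.06 at pH 5.9 in T6(c−), a difference of -3.50 on the log2 scale, SE 0.85, adjusted p = 0.329. In A1(c+) it had 2.48 and 2.75 CPM at pH 5.9, 0.521 and 0.185 at pH 8.3 and 0.547 and 2.09 with bic. At 48 h it went from 3.65 and 2.503 CPM at pH 5.9 to 0.0954 and 1.39 with bic in A1(c+) and from 1.47 and 1.44 to 0.187 and 0.228 in T6(c−), with a wide gap between the A1(c+) bic libraries. Over the 8 iron storage genes in the table, the median difference at 3 h was -1.17 with bic and -3.55 at pH 8.3 in A1(c+), and -3.26 and -3.12 in T6(c−). By the unadjusted p (under 0.05), 2 and 7 of the 8 were lower in A1(c+) with bic and at pH 8.3, and 5 and 5 in T6(c−), with none higher; FER1, FER3 and FER4 were DEGs in A1(c+) at pH 8.3 and none in the other 3 comparisons. Of all genes, 12.7% and 20.9% were lower in A1(c+) and 4.31% and 3.56% in T6(c−) by the same threshold. FER1, the main leaf ferritin, is not a member: its bic libraries of A1(c+) at 48 h, 28.6 and 217 CPM, overlapped pH 5.9 at 442 and 158 CPM. Its T6(c−) bic libraries of that time lay above both controls, at 92.8 and 125 CPM against 62.5 and 64.7 CPM at pH 5.9. No gene of the 14 induced by iron deficiency was a member, and their medians at 3 h were 1.12 with bic and 2.89 at pH 8.3 in A1(c+), and 3.09 and 2.37 in T6(c−), with 0, 7, 8 and 4 genes higher in that order at an unadjusted p under 0.05 and none a DEG. Of all genes, 1.22%, 2.78%, 3.16% and 4.77% were higher in the same order.

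FER3 and FER4 carry a G-box (the letters CACGTG, a palindrome read on both strands, to which bHLH and bZIP factors bind) at nearly the same distance before the gene start. The 150 bases before the annotated start of these and of 2 further members that were DEGs in A1(c+) at pH 8.3 after 3 h and hold this motif, AT2G36885 and DAR6, are shown with the G-box in capitals, 5′ to 3′ on the gene's own strand, from the RefSeq TAIR10.1 assembly.
FER3, chr3:20816036-20816185, minus strand: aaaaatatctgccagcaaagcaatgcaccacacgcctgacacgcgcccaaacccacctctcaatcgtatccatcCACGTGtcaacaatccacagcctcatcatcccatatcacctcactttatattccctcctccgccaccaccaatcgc
FER4, chr2:16833295-16833444, minus strand: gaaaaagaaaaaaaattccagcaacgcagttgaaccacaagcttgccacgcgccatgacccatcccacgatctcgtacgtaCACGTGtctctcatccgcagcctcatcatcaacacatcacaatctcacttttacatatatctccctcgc
AT2G36885, chr2:15483789-15483938, minus strand: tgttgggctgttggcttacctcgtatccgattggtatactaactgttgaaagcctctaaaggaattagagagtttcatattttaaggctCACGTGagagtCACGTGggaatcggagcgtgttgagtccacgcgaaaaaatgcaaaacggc
DAR6, chr5:26588261-26588410, plus strand: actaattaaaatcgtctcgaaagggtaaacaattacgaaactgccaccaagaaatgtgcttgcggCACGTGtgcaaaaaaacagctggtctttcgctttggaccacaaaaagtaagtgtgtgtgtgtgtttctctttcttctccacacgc
The first base of the motif is 76 bases before the start in FER3, 69 in FER4, 61 and 50 in AT2G36885 and 85 in DAR6. A G-box lay in the window from 250 bases before to 50 after the start in 12 of the 100 members and in 9.06% of the 18534 promoters of genes in the table, and in 4 of the 7 members that were DEGs. These 4 are the ones shown, and the set of 7 changed with the settings, as given below. All treated libraries lay below pH 5.9 at 3 h in both demes in 19 members and 10.5% of all genes, and 5 of these 19 members held a G-box. Of the other motifs searched on both strands, the evening element AAATATCT was in 9 members and 6.02% of promoters, the CCA1-binding site AAAAATCT in 13 and 8.29%, the I-box core GATAAG in 12 and 14.9%, the site II element TGGGCC in 9 and 19.4%, the PHR1 site GNATATNC in 5 and 6.19%, and the telo-box AAACCCTAA in 0 and 3.23%. The iron-dependent regulatory sequence of ferritin genes matched 0 of the 18534 windows, those of FER3 and FER4 among them. With no match in any gene, this pattern and window cannot show that a member lacks the element. A match is a description of letters and was not tested.

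**Figure D3:**
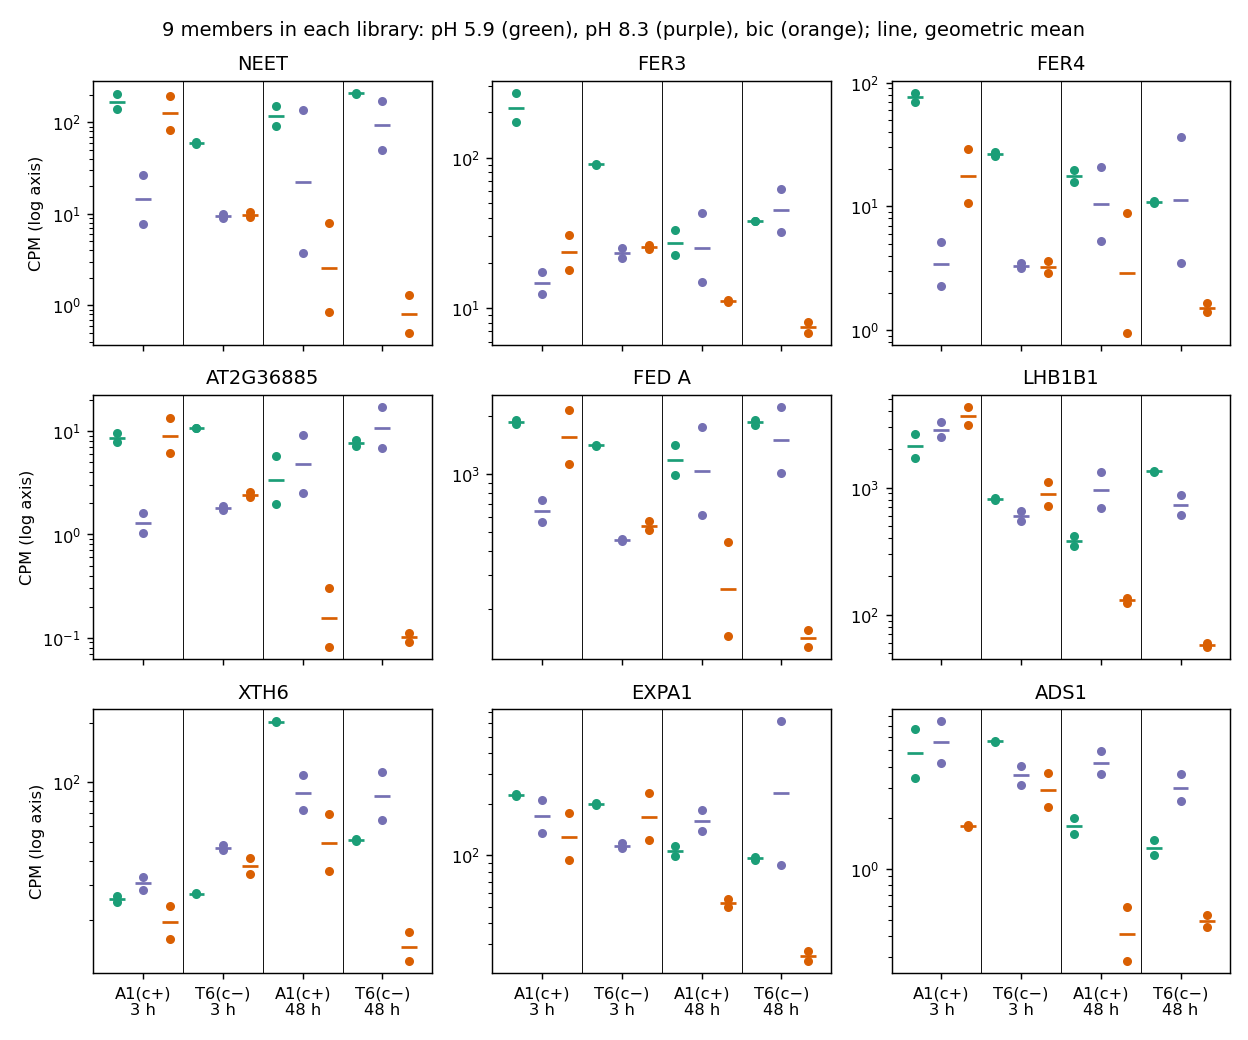
CPM (log axis) of 9 members in each library, by deme and time, at pH 5.9 (green), pH 8.3 (purple) and with bic (orange); points are the 2 replicates and lines their geometric mean. NEET, FER3, FER4, AT2G36885, FED A and EXPA1 were lower at pH 8.3 than at pH 5.9 after 3 h in both demes. LHB1B1, XTH6 and ADS1 at pH 8.3 were within or above the pH 5.9 range of 3 h in A1(c+).

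The next members described were chloroplast electron carriers and the first enzyme of tetrapyrrole synthesis. Over 12 chloroplast iron and iron-sulfur genes listed, the median difference at 3 h was -0.18 with bic and -0.17 at pH 8.3 in A1(c+). In T6(c−) it was -0.23 and -0.35. All genes had -0.19 and -0.27 in A1(c+), and -0.07 and -0.01 in T6(c−). FED A, the major leaf ferredoxin FD2 that accepts electrons from photosystem I, was the only member among the 12. It had 1405 and 988 CPM in A1(c+) and 1792 and 1912 in T6(c−) at pH 5.9 after 48 h, and 144 and 444 in A1(c+) and 127 and 156 in T6(c−) with bic. The pH 8.3 libraries of 48 h had 613 and 1750.4 CPM in A1(c+) and 2217 and 1011 in T6(c−), on both sides of the control. At 3 h the T6(c−) libraries had 1403 and 1409 CPM at pH 5.9, 462 and 450.5 at pH 8.3 and 568 and 512 with bic, without overlap, a difference at pH 8.3 of -1.62 on the log2 scale, SE 0.48, adjusted p = 0.388. In A1(c+) the pH 8.3 libraries (736 and 567 CPM) were below both controls (1912 and 1822), and the bic libraries (1122 and 2142) were on both sides of them, the higher one being the library that departs from its deme.

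Over 14 chlorophyll synthesis genes in the table, the median difference at 3 h was 0.05 with bic and 0.09 at pH 8.3 in A1(c+). In T6(c−) it was -0.06 and -0.21. HEMA1, glutamyl-tRNA reductase, which opens the synthesis of chlorophyll and haem, was the 1 member among the 14. In T6(c−) it had 479 and 474 CPM at pH 5.9, 196 and 182 at pH 8.3 and 176 and 182 with bic after 3 h, and 60.1 and 64.02 with bic against 742 and 739.5 at pH 5.9 after 48 h. The 3 h difference with bic was -1.41 on the log2 scale, SE 0.53, adjusted p = 0.559. In A1(c+) the bic libraries at 48 h were 34.8 and 242 CPM, a spread of several-fold, against 794 and 559.6 at pH 5.9. The rubredoxin-type proteins ENH1 and AT5G51010, 2 of 6 genes so annotated in the table, encode proteins with an iron-binding rubredoxin fold. ENH1 had 137 and 143 CPM at pH 5.9 and 50.5 and 50.1 with bic in T6(c−) after 3 h, and AT5G51010 had 57.4 and 58.6 at pH 5.9 and 27.2 and 29.3 with bic. In A1(c+) AT5G51010 had 95.6 and 89.5 CPM at pH 5.9 and 29.1 and 20.2 at pH 8.3, a difference of -1.93 on the log2 scale, SE 0.48, adjusted p = 0.0565.

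AT2G36885, which RefSeq annotates as a translation initiation factor, was next in rank after CYP78A8. It had 7.85 and 9.68 CPM in A1(c+) and 10.8 and 10.7 in T6(c−) at pH 5.9 after 3 h, and 1.63 and 1.04 in A1(c+) and 1.74 and 1.89 in T6(c−) at pH 8.3. Its bic libraries had 6.11 and 13.5 CPM in A1(c+), where only the departing replicate 2 reached the control range, and 2.56 and 2.32 in T6(c−). It fell at pH 8.3 in A1(c+), with a difference of -2.75 on the log2 scale, SE 0.60, adjusted p = 0.0443. At 48 h it went from 5.80 and 1.97 CPM at pH 5.9 to 0.0807 and 0.304 with bic in A1(c+) and from 7.24 and 8.18 to 0.0909 and 0.111 in T6(c−). The glutaredoxins AT2G47880 and AT1G06830 are small thiol proteins, 2 of 19 annotated so in the table. AT2G47880 went from 5.29 and 6.94 CPM at pH 5.9 to 0.785 and 1.21 with bic in A1(c+) and from 3.25 and 3.33 to 0.123 and 0.0436 in T6(c−) at 48 h. AT1G06830 went from 6.17 and 6.34 CPM at pH 5.9 to 2.34 and 2.89 with bic in A1(c+) and from 5.85 and 6.82 to 0.465 and 0.247 in T6(c−).

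The antenna and photosystem members lay above pH 5.9 in A1(c+) after 3 h of bic and far below it in both demes after 48 h. Among 40 such genes listed, LHB1B1, CAB1 (light-harvesting proteins of photosystem II) and PSAN (a lumenal subunit of photosystem I) were members. With bic at 48 h all 40 lay below pH 5.9 in both T6(c−) replicates and 32 of 40 in A1(c+). The shares of all genes that did so were 26.9% and 13%. The medians of the 40 were -1.87 and -0.40, and the mesophyll markers moved with them. The rule used these libraries and the pH 5.9 replicates of T6(c−) nearly coincide, so the counts are only a description. LHB1B1 had 347 and 413 CPM at pH 5.9, 1318 and 693 at pH 8.3 and 124 and 136 with bic in A1(c+) at 48 h, and 1332 and 1357 at pH 5.9, 881 and 606 at pH 8.3 and 55.5 and 59.8 with bic in T6(c−). So pH 8.3 was above the control in A1(c+) and below it in T6(c−), with no overlap in either deme. At 3 h LHB1B1 with bic was above the control in A1(c+), at 3125 and 4285 against 1722 and 2653 CPM, and overlapped it in T6(c−), at 716 and 1099 against 822 and 800.4; the A1(c+) difference was 0.78 on the log2 scale, SE 0.35, adjusted p = 0.3604. CAB1 was the most abundant member per length and went from 13274 and 11203 CPM at pH 5.9 to 5519 and 6099.7 with bic in A1(c+) and from 19035 and 18275 to 2678 and 2471 in T6(c−) at 48 h. PSAN went from 1701 and 1390.1 CPM at pH 5.9 to 294 and 657 with bic in A1(c+) and from 1744 and 1697 to 164 and 169.5 in T6(c−). At 3 h PSAN had 1682 and 1987 CPM with bic against 1308 and 1199.7 in A1(c+), and 625 and 709.6 against 858 and 903 in T6(c−), so the groups did not overlap and lay in opposite order. At 3 h none of the 40 was lower in A1(c+) at an unadjusted p under 0.05, 10 were higher with bic and 11 at pH 8.3, 1 of them (LHCB2.1) a DEG, where 1.22% and 2.78% of all genes were higher. In T6(c−) none was higher under either treatment, and none was lower with bic and 1 at pH 8.3, with medians of -0.02 and -0.24. The shares of all genes that were lower with bic and at pH 8.3 were 12.7% and 20.9% in A1(c+) and 4.31% and 3.56% in T6(c−). Those higher in T6(c−) were 3.16% and 4.77%, so the T6(c−) counts of the 40 are near the shares of all genes. LHB1B1 and CAB1 have near-identical copies, so their reads may be split between genes and the values are uncertain.

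Of 17 wall-loosening genes listed, XTH6, XTH8 and EXPA1 were members. XTH6 had 204 and 202 CPM at pH 5.9 in A1(c+) after 48 h, 72.03 and 109 at pH 8.3 and 68.8 and 35.3 with bic. In T6(c−) it had 51.6 and 50.02 CPM at pH 5.9, 64.1 and 112 at pH 8.3 and 17.3 and 12.3 with bic, so pH 8.3 lay above the control there and below it in A1(c+). At 3 h XTH6 at pH 8.3 lay above the control in T6(c−) (45.3 and 47.9 against 27.1 and 27.3 CPM), a difference of 0.78 on the log2 scale, SE 0.28, adjusted p = 0.481. EXPA1, an alpha-expansin, went from 114 and 99.6 CPM at pH 5.9 to 55.3 and 49.5 with bic in A1(c+) and from 94.5 and 97.7 to 23.8 and 27.5 in T6(c−) at 48 h. Its pH 8.3 libraries at 48 h had 138 and 186 CPM in A1(c+) and 613 and 87.6 in T6(c−), where the high value is the library that departs from its deme. XTH8 went from 12.6 and 10.7 CPM at pH 5.9 to 5.19 and 2.84 with bic in A1(c+) and from 13.98 and 14.8 to 6.04 and 3.46 in T6(c−). No wall-loosening gene was a DEG at 3 h; at an unadjusted p under 0.05, 3 were lower and 1 higher with bic in A1(c+), 4 lower at pH 8.3, and in T6(c−) 2 lower and 1 higher with bic and 2 higher at pH 8.3. Of all genes, 12.7% and 20.9% were lower with bic and at pH 8.3 in A1(c+), and 1.22% higher with bic. In T6(c−), 4.31% were lower and 3.16% higher with bic, and 4.77% higher at pH 8.3. With bic at 48 h the 17 genes had a median of -0.998 (A1(c+)) and -1.09 (T6(c−)).

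By annotated product, chosen after the members were seen, further wall and growth genes were members. They include 3 of 13 fasciclin-like arabinogalactan proteins (FLA2, FLA9, FLA13), 3 of 38 SAUR-like auxin-response genes (SAUR26, SAUR28, AT1G29450), 2 of 3 genes named RAD-like (RL4 and RL6, small MYB-related proteins), 2 of 5 gibberellin-regulated peptides (GASA6, AT1G22690), 2 of 40 pectin lyase-like and 2 of 43 GDSL lipase genes. SAUR genes have near-identical copies, and their values are uncertain. FLA9, chosen after its values were seen, lay below the control at 3 h too, at 11.9 and 12.3 CPM with bic against 20.7 and 20.2 in T6(c−) and 5.69 and 8.12 against 16.04 and 16.4 in A1(c+), where the difference was -1.25 on the log2 scale, SE 0.38, adjusted p = 0.187. FLA2 and FLA13 did not lie below the control in both replicates with bic at 3 h in either deme. Their differences were 0.28 and -0.22 in A1(c+) and 0.28 and 0.20 in T6(c−). GASA6 went from 48.4 and 42.5 CPM at pH 5.9 to 9.81 and 10.9 with bic in A1(c+) and from 26.6 and 29.2 to 4.91 and 2.78 in T6(c−) at 48 h, and at pH 8.3 in T6(c−) had 248 and 16.4 CPM, the high value again in the departing library. MEE3, a homeodomain-like protein, had 0.177 and 0.189 CPM with bic in T6(c−) against 6.31 and 6.69, and already 0.506 and 0.352 against 1.58 and 1.33 at 3 h. BRS1, a serine carboxypeptidase of brassinosteroid signalling, went from 31.5 and 12.2 CPM at pH 5.9 to 3.25 and 0.682 with bic in A1(c+) and from 30.3 and 27.8 to 1.98 and 1.68 in T6(c−). Its gene overlaps the end of AT4G30620, also a member, on the other strand, and the libraries keep no strand, so reads there cannot be told apart.

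The other genes among the first 25 covered metabolism, leaf development and unknown functions. CYP78A8, a cytochrome P450, ranked second and went from 1.65 and 1.61 CPM at pH 5.9 to 0.198 and 0.184 with bic in A1(c+) and from 3.47 and 3.29 to 0.209 and 0.189 in T6(c−) at 48 h. The aspartyl protease AT1G09750 went from 40.3 and 26.9 CPM at pH 5.9 to 5.75 and 5.599 with bic in A1(c+) and from 74.6 and 73.7 to 5.62 and 6.16 in T6(c−), so the demes had nearly the same level with bic. AT2G10940, a lipid-transfer-type protein, was abundant at 1806 and 1802 CPM in T6(c−) at pH 5.9 and had 152 and 63.8 with bic. At 3 h it was below the control in both T6(c−) treatments without overlap, with -1.31 on the log2 scale, SE 0.31, adjusted p = 0.3197 for bic. CT-BMY, the chloroplast beta-amylase that breaks down starch, went from 1928 and 1761 CPM at pH 5.9 to 646 and 591 with bic in A1(c+) and from 1659 and 1629 to 322 and 255 in T6(c−). After 3 h at pH 5.9 it had 357 and 239 CPM in A1(c+) and 353 and 355 in T6(c−), below its level at 48 h. ACP4, the acyl carrier protein of plastid fatty acid synthesis, went from 311 and 213 CPM at pH 5.9 to 87.2 and 77.2 with bic in A1(c+) and from 362 and 358 to 51.7 and 59.4 in T6(c−). ADS1, a delta-9 desaturase, went from 1.603 and 2.002 CPM at pH 5.9 to 0.594 and 0.284 with bic in A1(c+) and from 1.199 and 1.47 to 0.5296 and 0.451 in T6(c−). TRY, an inhibitor of trichome formation, went from 8.95 and 6.62 CPM at pH 5.9 to 2.66 and 2.48 with bic in A1(c+) and from 12.7 and 13.2 to 1.24 and 0.867 in T6(c−). In all 4 the bic and control groups are apart by the rule. The mean difference with bic at 48 h was -1.74 and -3.04 in GER1 (a germin-like protein), -1.93 and -2.93 in AT4G27360 (a dynein light chain) and -1.75 and -1.26 in AT2G36630 (a TauE/SafE-type transporter), in A1(c+) and T6(c−). AT2G36630, with a T6(c−) score of 1.25, was one of the 14 members whose T6(c−) score was the lower one.

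At 3 h, limma on the 16 libraries the rule did not use (two-sided, adjusted over 18603 genes) called members in 1 of the 4 treatment comparisons. In A1(c+) at pH 8.3, 7 of the 100 members were lower DEGs and none a higher one, where 0.882% of all genes tested were lower DEGs and 0.0753% higher ones. They were FER4, FER3, DAR6, AT2G36885, AT2G36110, AT4G28020 and APT5. DAR6, a DA1-related protein, had 1.57 and 1.37 CPM against 11.6 and 9.39 (-2.83 on the log2 scale, SE 0.44, adjusted p = 0.0258). AT2G36110, a ribonuclease H-like protein, had 1.02 and 1.24 against 4.25 and 3.66 (-1.81 on the log2 scale, SE 0.34, adjusted p = 0.0339). AT4G28020, a tRNA methyltransferase, had 2.99 and 2.72 against 7.67 and 9.83 (-1.61 on the log2 scale, SE 0.21, adjusted p = 0.0212) and, with bic, 2.44 and 3.63 (-1.54 on the log2 scale, SE 0.21, adjusted p = 0.0801). APT5, an adenine phosphoribosyltransferase, had 2.42 and 2.88 against 6.798 and 4.74 (-1.10 on the log2 scale, SE 0.22, adjusted p = 0.0407). This count of 7 rested on the whole set of libraries and on the settings. It was 3 with TMM factors, with quantile normalization, with a mean of at least 10 CPM (68 members tested) and with the replicate block. It was 19 with only the 3 h groups in the fit. It was 0 without A1(c+) pH 5.9 replicate 2, either A1(c+) pH 8.3, either T6(c−) pH 5.9 or either T6(c−) pH 8.3 replicate of 3 h, 2 without A1(c+) pH 5.9 replicate 1 and 3 without either T6(c−) bic replicate. It was 13 without either A1(c+) bic replicate of 3 h, 17 without either A1(c+) and 11 without either T6(c−) pH 8.3 replicate of 48 h, and 6 without the 4 replicates that depart from their deme, where AT2G36110 (adjusted p = 0.0653), AT2G36885 (0.0717) and APT5 (0.0749) no longer passed. In the 3 h comparison, the meristem markers summed to 0.0701 to 0.192 CPM at pH 8.3 and 1.83 to 4.51 CPM at pH 5.9 in A1(c+), and their part in the result was not tested.

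In the other 3 comparisons no gene was a DEG, so the background of DEGs was 0% there. At an unadjusted p under 0.05, 19 members were lower with bic in A1(c+), where 12.7% of all genes were, and 19 with bic in T6(c−), where 4.31% were. At pH 8.3, 31 were lower in A1(c+) against 20.9% of all genes and 19 in T6(c−) against 3.56%. The counts of higher members were 2 of 100 (1.22% of all genes) and 5 (3.16%) with bic, and 1 (2.78%) and 5 (4.77%) at pH 8.3, in A1(c+) and T6(c−). The lowest adjusted p of a member was 0.0801 with bic in A1(c+), 0.264 with bic in T6(c−) and 0.315 at pH 8.3 in T6(c−). Without A1(c+) bic replicate 2, which departs from its deme, the members' median with bic there was -0.62, against -0.25 over all genes. Without A1(c+) pH 5.9 replicate 1 it was -0.30 against -0.23 with bic, and -0.26 against -0.31 at pH 8.3. The compared group then has 1 library. The T6(c−) bic count was 10 or 9 without pH 5.9 replicate 1 or 2 and 10 without bic replicate 2, and the T6(c−) pH 8.3 count was 10 or 8 without those controls, 10 without either pH 8.3 replicate of 3 h and 31 without either T6(c−) pH 8.3 replicate of 48 h. Without the 4 departing replicates the lower counts were 34 and 21 with bic and 32 and 23 at pH 8.3 in A1(c+) and T6(c−), and CYCD1;1, a D-type cyclin, was then a DEG with bic in A1(c+), at -2.38 with an adjusted p of 0.0286 by limma, where with all libraries it was -0.94 on the log2 scale, SE 0.66, adjusted p = 0.564. Its bic libraries had 2.94 and 21.7 CPM against 16.1 and 14.5 at pH 5.9, so this call leaves 1 bic library, whose spread is taken from the other groups. In the study's sequencing quality listing the names of most libraries begin with B and of some with A, with no meaning given, and 3 replicates hold only the latter (A1(c+) bic 3 h replicate 2, and pH 8.3 48 h replicate 1 of each deme). Without these 3, 22 and 17 members were lower DEGs with bic and 27 and 16 at pH 8.3, in A1(c+) and T6(c−). Of all genes, 7.49% and 2.02% were lower DEGs with bic and 7.94% and 1.23% at pH 8.3 in that fit. A1(c+) bic at 3 h and both pH 8.3 groups of 48 h then have 1 library each, which is assumed to vary like the other groups. Bic and pH 8.3 comparisons of a deme share their pH 5.9 libraries and are not independent.

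Counted by overlap, both treated replicates lay below both pH 5.9 replicates in 40 members with bic and 54 at pH 8.3 in A1(c+), against 34.7% and 53.1% of all genes. In T6(c−) they did so in 62 and 76 members against 45.7% and 41.7%, with controls that nearly coincide. Both lay above both controls in 6 and 14 members in A1(c+) (6.64% and 13.2% of all genes) and in 17 and 13 in T6(c−) (26.3% and 38.1%). With bic, 24 members were below in both demes, where 16.3% of all genes were, and at pH 8.3 47 were, where 31% were. LAX1, an auxin influx carrier, was the member with the smallest p for a difference between the demes in the response to 3 h of bic. It had 13.2 and 13.3 CPM with bic against 21.9 and 23.5 in A1(c+), and 37.7 and 40.6 against 30.8 and 31.8 in T6(c−), but in that test of 18603 genes its adjusted p was 0.296.

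At pH 8.3 without bicarbonate, the members split after 48 h. The mean was below pH 5.9 in both demes in 42 members, above it in both in 25, below it in A1(c+) alone in 21 and in T6(c−) alone in 12. Both replicates lay below both controls in 27 members in each deme, where 13.9% of all genes did in A1(c+) and 21.7% in T6(c−); these comparisons share the controls that chose the members. The 5 members that were lowest in the mean over demes were AT2G47880, NEET, MEE3, IAGLU (an indole-3-acetate glucosyltransferase) and AT2G36630, at differences of -3.39 and -0.74, -2.38 and -1.16, -1.87 and -0.79, -1.10 and -1.02, and -0.91 and -1.08 in A1(c+) and T6(c−). The 5 highest were AT1G26790 (a Dof-type transcription factor), ADS1, AT1G09750, AT5G45670 (a GDSL lipase) and EXPA1, at 1.39 and 1.22, 1.24 and 1.18, 1.10 and 0.76, 0.83 and 1.03, and 0.59 and 1.27. AT1G26790 had 24.8 and 3.14 CPM in A1(c+) and 26.4 and 3.25 in T6(c−) at pH 8.3, where pH 5.9 had 4.001 and 2.81 in A1(c+) and 4.22 and 3.73 in T6(c−), so replicate 1 alone was high in each deme. In both demes that replicate holds only libraries whose names begin with A, and the T6(c−) one departs from its deme. ADS1 by contrast was higher in both replicates of both demes, at 4.93 and 3.62 CPM in A1(c+) and 2.495 and 3.63 in T6(c−). With bic, both replicates lay below both pH 8.3 replicates of 48 h in 76 members in A1(c+) (17.2% of all genes) and 97 in T6(c−) (21% of all genes). The rule used these bic libraries, so nothing is read from this count.

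**Figure D4:**
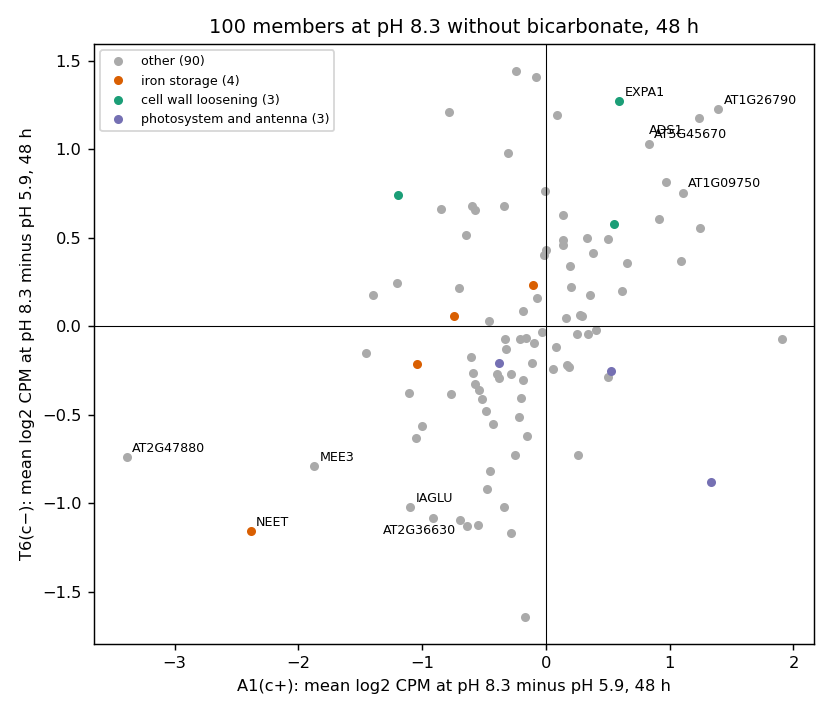
Mean log2 CPM at pH 8.3 minus pH 5.9 after 48 h in A1(c+) (x axis) and T6(c−) (y axis), 1 point per member, with iron storage, wall-loosening and photosystem genes in colour and the 5 lowest and 5 highest members named. Of the 100 members, 42 lie below 0 on both axes and 25 above 0 on both.

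The demes were compared at pH 8.3 after 48 h, with libraries the rule did not use. Of the members, 2 were DEGs, both lower in A1(c+), where 0.0484% of all genes were lower DEGs and 0.0108% higher. At an unadjusted p under 0.05, 9 members were lower in A1(c+) (6.15% of all genes) and 3 higher (5.69%). AT5G44020, an acid phosphatase of the HAD type, had 19.2 and 16.7 CPM in A1(c+) and 68.98 and 56.4 in T6(c−), a difference of -1.80 on the log2 scale, SE 0.20, adjusted p = 0.0208. AT1G52770, an NPH3 family protein, had 8.63 and 3.48 CPM in A1(c+) and 50.98 and 29.8 in T6(c−), a difference of -2.83 on the log2 scale, SE 0.40, adjusted p = 0.0401. At pH 5.9 AT5G44020 had 20.1 and 22.2 CPM in A1(c+) and 22.5 and 23.5 in T6(c−), whereas AT1G52770 had 4.85 and 4.95 and, far above, 37.6 and 37.9. Without the 4 departing replicates, T6(c−) pH 8.3 replicate 1 among them, 1 T6(c−) library was left here. It had 56.4 CPM of AT5G44020 and 29.8 of AT1G52770. The members' median difference was then -0.05 against 0.04 over all genes, where with all libraries of the fit it was -0.31 against -0.03. Without the 3 replicates whose library names begin with A, 2 of them pH 8.3 replicates of 48 h, the median was 0.14 against -0.12 over all genes. Each deme then has 1 library in this comparison, assumed to vary like the other groups. The count of 2 was 0 without either T6(c−) pH 5.9 or bic replicate of 3 h, 1 without either A1(c+) pH 5.9 or either pH 8.3 replicate of 3 h in A1(c+) or T6(c−), 5 without either A1(c+) bic replicate of 3 h, 12 without A1(c+) pH 8.3 replicate 2 of 48 h and 3 without either T6(c−) pH 8.3 replicate of 48 h.

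Levels per length at pH 5.9 after 48 h, as the mean of both demes, were highest for CAB1, PSAN and FED A, at 12558, 1604 and 1548 CPM per kilobase of the longest transcript. They were lowest for MUB5 (a ubiquitin-fold protein), ADS1 and AT5G47440, at 1.44, 1.18 and 1.04 CPM per kilobase. Near the limit of the rule, OEP6, an outer envelope protein of chloroplasts, went from 137 and 99.9 CPM at pH 5.9 to 61.2 and 50.5 with bic in A1(c+) and from 93.4 and 98.1 to 33.8 and 46.6 in T6(c−). AT4G16980, an arabinogalactan protein, went from 253 and 169 CPM at pH 5.9 to 103 and 41.6 with bic in A1(c+) and from 228 and 229 to 66.05 and 40.8 in T6(c−). In the histone gene AT5G59970, whose near-identical copies make its value uncertain, A1(c+) bic had 2.897 and 46.6 CPM against 7.47 and 6.57 at pH 5.9 after 3 h, and T6(c−) had 44.04 and 45.5 at pH 5.9; the high A1(c+) value is the departing library. RBP47A, an RNA-binding protein and the first gene outside the limit, went from 65.5 and 72.3 CPM at pH 5.9 to 37.8 and 36.0 with bic in A1(c+) and from 56.4 and 53.8 to 27.1 and 33.2 in T6(c−). The members lay on all 5 chromosomes, with 27, 11, 18, 16 and 28 genes on chromosomes 1 to 5, which hold 26.3%, 15.1%, 19.8%, 15.2% and 23.2% of the genes in the table. Within 10000 bases of each other lay 4 pairs, which were BRS1 and AT4G30620, SAUR26 and SAUR28, FLA13 and ABCI21, and AT3G17640 and HYH.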

How the data were processed

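Leaf RNA of 72 libraries was sequenced by the authors as unstranded paired reads, and 3 technical libraries of each biological replicate appear as 1 of 24 columns. The deposited values are log2 CPM, computed by the authors from reads per gene and TAIR10; the step that made the table is not given in the sources used here. The study's methods name TopHat and DESeq, and the submitters' processing notes name FastQC, Trim Galore, Salmon, DESeq 1.18.0 and DESeq2. The values are whole reads plus 0.5, scaled to the library total, with no further scaling found, so whole reads could be recovered for library totals.

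The members and all gene lists were chosen with earlier results of these data known. Tests used limma 3.58.1 in R 4.3.3 on the log2 CPM values, with a trend in the prior variance, 8 group means, 8 residual degrees of freedom, no filter and Benjamini-Hochberg adjustment over 18603 genes. The 16 libraries used were those of all groups at 3 h and of pH 8.3 at 48 h. A DEG needed a log2 fold change over 1 in size at an adjusted p below 0.05; the second threshold was an unadjusted p under 0.05. With 2 replicates a group, an exact permutation test of 2 groups cannot go below 0.333 and was not used. The fit was tested on simulated data with the same spread in all groups, which the groups here do not have, so it does not show how the fit does on them.

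Named were members ranked 1 to 25, those on a gene list, those called in a test, the 5 highest and 5 lowest at pH 8.3 after 48 h, the 3 highest and 3 lowest per length, and ranks 96 to 105. Alternatives were TMM factors, quantile normalization, 1 CPM added before the log2, a mean of at least 10 CPM, other groups in the fit, a replicate block and leaving out replicates. Of the 18603 genes, 18536 and all 100 members matched RefSeq (TAIR10.1), from which names, positions and sequences were taken. Python 3.11.15 with numpy 2.4.6, pandas 2.3.3 and matplotlib 3.10.9 was used for the rest.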

Additional observations from a re-analysis of the deposited data

Results flagged for a closer look

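In 18 cases a member moved in opposite directions in the 2 demes at 3 h, with both treated replicates above both pH 5.9 replicates in one deme and below both in the other, 9 of the 100 with bic and 9 at pH 8.3, where 9.89% and 12.2% of all genes did so. The difference given is the A1(c+) response minus the T6(c−) response on the log2 scale, each response being the treated mean minus pH 5.9. The interaction was tested with limma over 18603 genes in the 16 libraries the rule did not use, and no gene passed an adjusted p of 0.05 for either treatment, while 1334 genes with bic and 1188 at pH 8.3 had an unadjusted p under 0.05, among them 10 and 7 members. The pH 5.9 replicates of T6(c−) nearly coincide, which makes it easy for treated replicates to lie on 1 side of them.

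With bic, XTH6 differed by -0.85 (-0.39 in A1(c+) and 0.46 in T6(c−)) and AT1G29660 differed by -1.90 (-0.72 in A1(c+) and 1.18 in T6(c−)). PSAN differed by 0.95 (0.55 in A1(c+) and -0.40 in T6(c−)) and XTH8 differed by -0.44 (-0.29 in A1(c+) and 0.15 in T6(c−)). AT1G22690 differed by -1.86 (-1.28 in A1(c+) and 0.58 in T6(c−)) and iqd21 differed by -0.88 (-0.71 in A1(c+) and 0.17 in T6(c−)). CAB1 differed by 0.56 (0.35 in A1(c+) and -0.21 in T6(c−)) and RL4 differed by 1.10 (0.49 in A1(c+) and -0.61 in T6(c−)). LAX1 differed by -1.10 (-0.78 in A1(c+) and 0.32 in T6(c−)). The smallest adjusted p was 0.296, for LAX1. At pH 8.3, PSAN differed by 0.69 (0.19 in A1(c+) and -0.50 in T6(c−)) and AT3G26960 differed by -0.60 (-0.33 in A1(c+) and 0.26 in T6(c−)). RL4 differed by 1.02 (0.32 in A1(c+) and -0.69 in T6(c−)) and AT1G29450 differed by 1.33 (1.20 in A1(c+) and -0.14 in T6(c−)). AT5G15950 differed by -0.79 (-0.40 in A1(c+) and 0.38 in T6(c−)) and SAUR28 differed by 1.22 (1.08 in A1(c+) and -0.14 in T6(c−)). AT5G05890 differed by 0.73 (0.48 in A1(c+) and -0.26 in T6(c−)) and MUB5 differed by 0.80 (0.41 in A1(c+) and -0.38 in T6(c−)). RL6 differed by 2.40 (0.74 in A1(c+) and -1.65 in T6(c−)). The smallest adjusted p of any member was 0.779. PSAN and RL4 are in both sets, and both sets share their pH 5.9 libraries.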

How the results depend on the processing

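Counts of members lower at 3 h depended on which libraries were in the fit. For DEGs with bic in A1(c+) (0), the count was 2 with all 12 groups, 6 with only the 3 h groups, 22 without the 3 replicates whose library names begin with A and 1 without the 4 replicates that depart from their deme; in T6(c−) (0) it was 5 with only the 3 h groups and 17 without the A replicates. For DEGs at pH 8.3 in A1(c+) (7), it was 3 each with TMM factors, quantile normalization, a mean of at least 10 CPM and the replicate block, 19 with only the 3 h groups and 27 without the A replicates; in T6(c−) (0) it was 7 and 16 for the last 2 settings. At an unadjusted p under 0.05, the bic count in A1(c+) (19) was 10 with TMM, 12 with quantile normalization, 29 with only the 3 h groups, 51 without the A replicates and 34 without the departing ones, and in T6(c−) (19) it was 12 with at least 10 CPM, 36 with only the 3 h groups and 46 without the A replicates. The pH 8.3 count in A1(c+) (31) was 20 with quantile normalization, 20 with at least 10 CPM and 48 without the A replicates, and in T6(c−) (19) it was 43 with only the 3 h groups and 55 without the A replicates. Between demes at pH 8.3 after 48 h, DEGs (2) were 1 with the replicate block and 11 without the A replicates, and members at an unadjusted p under 0.05 (12) were 33 without the A replicates and 20 without the departing ones. The share of all genes called moved with these counts. With only the 3 h groups and an unadjusted p under 0.05 it was 22.9% and 9.34% with bic and 33.0% and 7.78% at pH 8.3, in A1(c+) and T6(c−). Between demes at pH 8.3 after 48 h, 11.8% of all genes were called at that threshold with all libraries of the fit, near the members' share. That share also rose without the A replicates and without the departing ones. Both fits leave a compared group with 1 library, so the higher counts there are not read as a trait of the members. With a floor of 10 CPM the rule kept 66 members. The cause of these shifts was not tested, except that fewer libraries and genes were in the fit where the setting says so.

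Leaving out 1 replicate at a time gave 0 to 3 DEGs with bic in A1(c+), 0 in T6(c−), 0 to 17 at pH 8.3 in A1(c+), 0 in T6(c−) and 0 to 12 between demes; at an unadjusted p under 0.05 it gave 10 to 32, 9 to 26, 19 to 36, 8 to 31 and 12 to 44. The rule kept 53 to 99 members. In the tests, the share of all genes at an unadjusted p under 0.05 also moved from fit to fit. Each of these fits leaves 1 library in a group, so the ranges are not read as a trait of the members. The correlation of same-numbered replicates' differences was -0.157 and -0.05 with bic in A1(c+) and T6(c−), 0.022 and -0.062 at pH 8.3, and 0.317 between demes, where 2 pairs are too few to show that the numbers pair the samples. The replicate block moved no other of these counts by over 1.5 times. Of all alternative values, 179 kept their count within 1.5 times and 81 did not. With 2 replicates a group, of which several depart from their deme, small differences were not detectable. Large ones also went uncalled at 3 h, such as -3.56 for NEET at pH 8.3 in A1(c+) and -3.50 for AT1G21140 with bic in T6(c−). A gene that is not a DEG is thus not shown to be unchanged.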
